A study of Bombyx mori with 64 samples.

Results

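The silk gland of the silkworm Bombyx mori was followed from fifth-instar day 7 larvae (7d IL5) through larvae at 0 h of spinning (0 h Sp) to prepupae at 0 h (0 h PPu). The arrays were chosen by their labels, as silk gland specimens of mixed sex at these stages. They make up 6 of the 64 arrays of the series and 3 of its 32 RNA specimens, since every RNA was run on a pair of slides, a and b. All came from the bivoltine strain DaZao, reared on mulberry leaves, and no treatment was given. Each stage was represented by 1 RNA specimen, and the number of glands pooled in it was not given in the sources used here. The slides of a specimen share their RNA, so the spread between them is technical. The other 11 metamorphosis specimens were midgut at the same 3 stages, and body wall and fat body at these stages and in day 1 pupae (the labels of the fat body pupa give both day 1 and day 2).

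MicroRNAs are short RNAs that guide silencing complexes to messenger RNAs through partial base pairing, most often by the seed near their 5′ end. The silk gland is the larval organ that makes the proteins of the cocoon thread. It works hardest late in the last larval instar and during spinning, and it is then broken down under the action of ecdysteroids as the animal becomes a pupa. The comparisons ask which miRNA signals of the gland differed between the feeding larva, the onset of spinning and the prepupa, and where the gland departed from the other tissues over the same stages.

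The array carried 106 miRNA probes, SW-1 to SW-106, each printed as 3 spots and read in 1 colour (Cy3). The probes were complementary to mature miRNAs, and some miRNAs had more than 1 probe, so probes are not independent items. They are given by number, because the tables used here pair them with no miRNA name or sequence. Signals are background-subtracted spot intensities on a linear scale after the authors' scaling of each array by 1 factor. A signal of 1000 is the study's limit for expression. For ratios, signals under 100 were set to 100.

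In all, 87 probes reached 1000 on both slides in day 7 larvae, 64 in spinning larvae and 70 in prepupae. The same 59 probes did so at all 3 stages, 17 did so at no stage, and 12 stayed under 1000 on all 6 arrays. Most of the probes at 1000 were of moderate signal, and 13, 10 and 14 probes had a stage mean of 10000 or more in day 7 larvae, spinning larvae and prepupae. The slides of a specimen correlated across probes with Pearson's r of 0.925, 0.983 and 0.973 at these stages, and differed by a median of 0.43, 0.32 and 0.17 on the log2 scale.

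The spinning arrays were dimmer over most probes. The median over the 106 probes was 2721 and 1943 on slides a and b in day 7 larvae, 1501 and 1244 in spinning larvae, and 2094 and 2115 in prepupae. The arrays carry a date code, called a session here, whose meaning is not stated. The day 7 and prepupal arrays share a session, whereas the spinning arrays were of another, so for every comparison with spinning larvae stage and session cannot be told apart. Control spots named blank had signals of 3569 and 3233 in day 7 larvae, 457 and 3156 in spinning larvae, and 3589 and 4123 in prepupae, above the array median on 5 of the 6 arrays. What these spots hold is not stated. The probes above them on both slides numbered 27, 21 and 29 at these stages, and 19 probes lay above them on all 6 arrays. A count of probes at 1000 therefore includes many under the blank spots of the same array, and the part of background in such signals was not tested.

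**Figure D1:**
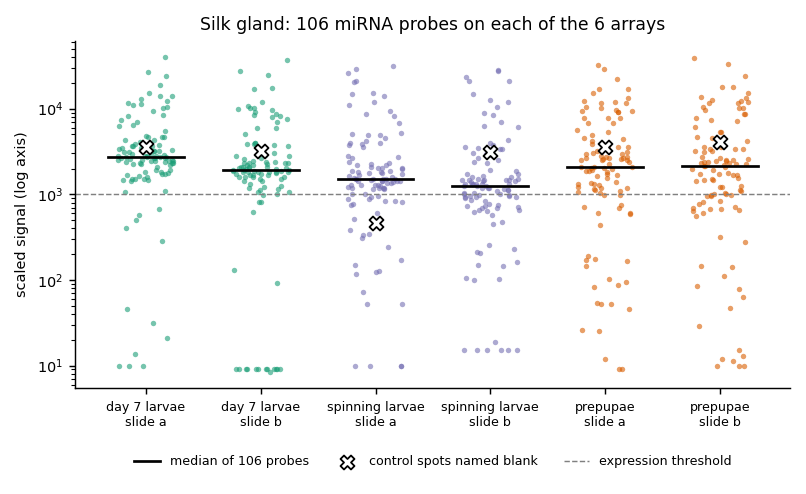
Scaled signals (log axis) of the 106 miRNA probes on the 6 silk gland arrays, by stage and slide. Each point is a probe, the bar is the array median, the cross is the mean of the control spots named blank and the dashed line marks 1000. The medians are 2721 and 1943 in day 7 larvae, 1501 and 1244 in spinning larvae and 2094 and 2115 in prepupae, and the blank spots lie under the median only on slide a of spinning larvae.

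A small group of probes supplied the strongest signals throughout. SW-45 had the highest mean in day 7 larvae, with 40681 and 37254 on slides a and b, whereas it had 26385 and 21237 in spinning larvae and 22047 and 24118 in prepupae. SW-9 took the first place in prepupae, with 15112 and 17281 in day 7 larvae, 29030 and 28642 in spinning larvae and 29077 and 39592 in prepupae. By rank it was the 5th probe, the 2nd and the 1st at these stages. SW-74 led in spinning larvae. SW-38, SW-45, SW-9, SW-55 and SW-74 were among the 10 strongest probes at each stage. None of the miRNA spots of the gland reached a net signal of 64000, close to saturation.

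Stages were compared by a rule of size, with no test, because each had 1 specimen. A probe was counted when the lower slide of the stronger stage was at 1000 or more and at least 2-fold above the higher slide of the weaker stage. The rule was applied to the signals as scaled by the authors and again after array-median centring. Over the 3 stage pairs 28 probes passed as scaled and 23 after centring, of which 15 passed both ways.

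Prepupae differed from day 7 larvae in few probes. 3 of the 106 probes were higher in prepupae (2.83%) and 7 were lower (6.6%), and the same 10 probes passed after centring, which gave 5 higher (4.72%) and 8 lower (7.55%). These specimens share a session, and their median difference was -0.13 on the log2 scale. SW-55 had 32145 and 33574 in prepupae, against 11572 and 10244 in day 7 larvae, a 3.02-fold difference. It was already among the strong probes of the larva and became the second strongest of the prepupa. SW-30 had 7843 and 6121 in prepupae, against 2446 and 1981 in day 7 larvae (3.15-fold, with the day 7 signals under the blank spots), and SW-27 had 10449 and 12538 in prepupae, against 4666 and 3672 in day 7 larvae (2.76-fold). That the slides of the stages lay apart for these probes follows from the rule that picked them.

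The 7 lower probes were SW-24, SW-36, SW-85, SW-59, SW-44, SW-62 and SW-72. SW-24 had 45.7 and 15.3 in prepupae, against 2310 and 1685 in day 7 larvae, at least 19.7-fold lower with the floor of 100. SW-36 had 145 and 28.7 in prepupae, against 1921 and 1120 in day 7 larvae. SW-85 had 53.3 and 273.7 in prepupae, against 1723 and 1149 in day 7 larvae. These 3 probes were far below 1000 in prepupae, and their day 7 signals, all above 1000, were under the blank spots of the same arrays. SW-59 was the only strong probe of the 7, with 3864 and 3420 in prepupae, against 12196 and 11909 in day 7 larvae (3.32-fold lower). SW-44, SW-62 and SW-72 were under 1000 on both slides of prepupae. Their day 7 signals of 1504 to 2993 were also under the blank spots, as were those of 6 of the 7 lower probes in all, so no exact fold is given for these 3. SW-9 had a prepupal mean 2.10-fold above that of day 7 larvae but failed the rule, since its slides of prepupae were 29077 and 39592.

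The step from day 7 to spinning larvae gave mostly lower signals as scaled. 1 probe was higher in spinning larvae (0.943%) and 12 were lower (11.3%), while the median over all 106 probes lay 0.71 lower on the log2 scale (a difference of -0.71). After centring 5 were higher (4.72%), namely SW-59, SW-74, SW-9, SW-30 and SW-40, and 4 were lower (3.77%), namely SW-28, SW-60, SW-68 and SW-85, and these 4 were lower under both scalings. SW-74 was the probe higher under both, with 31827 and 27809 in spinning larvae, against 12913 and 10765 in day 7 larvae (2.52-fold). SW-28 had 878 and 581 in spinning larvae, against 6516 and 5882 in day 7 larvae (8.67-fold lower). SW-68 had 764 and 769 in spinning larvae, against 4304 and 3872 in day 7 larvae (5.33-fold lower). SW-60 had 345 and 162 in spinning larvae, against 1510 and 1321 in day 7 larvae, and SW-85 had 52.0 and 104, against 1723 and 1149. SW-60 and SW-85 were under the blank spots of the same arrays at both stages, whereas SW-28 and SW-68 were above them in day 7 larvae.

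The step from spinning larvae to prepupae showed the reverse shift of the arrays, with a median difference of 0.56 on the log2 scale. As scaled, 12 probes were higher in prepupae (11.3%) and 4 were lower (3.77%). After centring 0 were higher (0%) and 9 were lower (8.49%), so 0 of the 12 higher probes passed under both scalings, whereas the 4 lower probes did. These were SW-59, SW-11, SW-72 and SW-74. SW-59 had 3864 and 3420 in prepupae, against 20567 and 21055 in spinning larvae (5.72-fold lower). SW-11 had 6776 and 8661 in prepupae, against 21116 and 23145 in spinning larvae (2.89-fold lower). SW-72 had 606 and 691 in prepupae, against 1754 and 1711 in spinning larvae. Both slides of prepupae and slide b of spinning larvae were under their blank spots for SW-72. SW-74 had 12406 and 13247 in prepupae, against 31827 and 27809 in spinning larvae (2.32-fold lower).

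**Figure D2:**
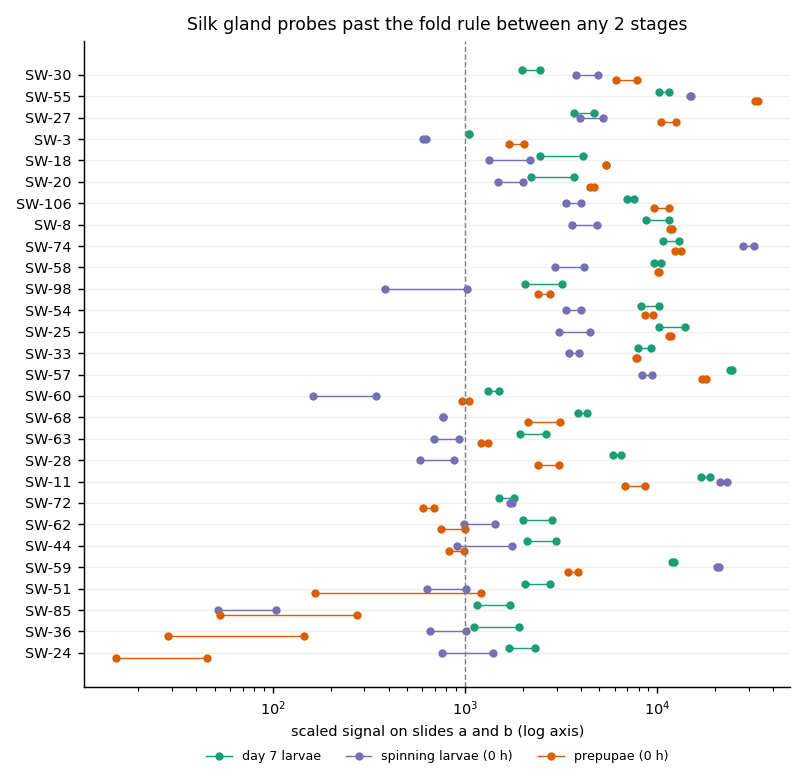
Scaled signals on slides a and b (log axis, joined by a line) of the 28 probes that passed the fold rule in any stage pair as scaled, ordered from the highest to the lowest ratio of prepupae to day 7 larvae. Green, purple and orange mark day 7 larvae, spinning larvae and prepupae, and the dashed line marks 1000. SW-30, SW-55 and SW-27 are highest in prepupae, and SW-59 and SW-74 are highest in spinning larvae.

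Signals that turned between the steps were of both kinds. As scaled, 6 probes (SW-25, SW-28, SW-54, SW-58, SW-68 and SW-98) were lower in spinning larvae than in day 7 larvae and higher again in prepupae, and SW-74 followed the opposite course. After centring 0 of the 6 passed in both steps, and 2 probes, SW-74 and SW-59, had their peak at spinning. SW-25 illustrates the first kind, with 13929 and 10182 in day 7 larvae, 4489 and 3071 in spinning larvae and 11789 and 11563 in prepupae. SW-58 followed it closely, with 10486 and 9661 in day 7 larvae, 4162 and 2941 in spinning larvae and 10123 and 10232 in prepupae. It is not known here whether SW-25 and SW-58 stand for different miRNAs. After centring, the log2 differences of the steps were -0.93 and 1.03 for SW-25 and -0.77 and 0.92 for SW-58. Those of SW-28 were -2.37 and 1.31 and those of SW-68 were -1.66 and 1.12, so these probes kept the direction of both steps, and SW-28 and SW-68 still passed in the first.

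**Figure D3:**
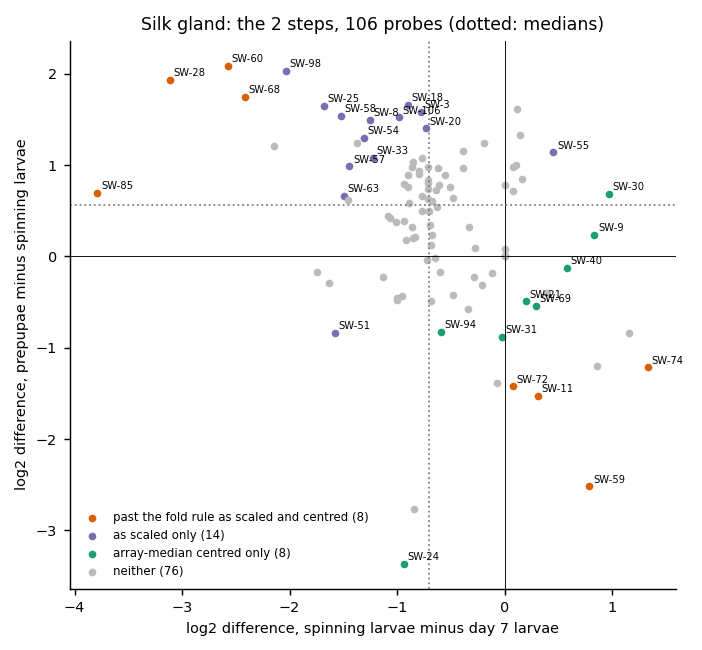
Log2 difference of spinning larvae minus day 7 larvae (horizontal) and of prepupae minus spinning larvae (vertical) for the 106 probes. Colours mark the probes past the fold rule in either step as scaled and centred (8), as scaled only (14), centred only (8) or neither (76), and dotted lines mark the medians of -0.71 and 0.56. SW-74 and SW-59 lie at the lower right, and the 6 probes that dipped at spinning lie at the upper left.

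To use the spread between specimens, limma was fitted to all 14 metamorphosis specimens, giving each tissue its own straight line over the stages. It was run on the 83 probes that reached 1000 in 3 specimens or more. Of the 28 probes above, 24 were among these. With 3 evenly spaced stages, the slope of the gland rests on the day 7 and prepupal specimens, and its error comes from how far specimens of the 4 tissues depart from straight lines. In limma, 0 probes rose with stage (0%, and 0 at an unadjusted p under 0.05) and 1 fell (1.2%, and 1 unadjusted). It was SW-24, with a slope of -2.15 per step (standard error 0.54, adjusted p = 0.0469 in limma). SW-24 passed the filter on low signals only with the day 7 (1998) and spinning (1080) gland specimens, the stages where it was high. The filter thus favoured a falling slope, so the p-value gives no independent support. The call is fragile, as it was lost in 13 of 25 alternatives, where limma gave adjusted p up to 0.613. After centring 0 probes passed in limma (0 higher and 0 lower), with 4 higher and 2 lower at an unadjusted p under 0.05. In limma 0 slopes differed from the mean slope of the other tissues (3 unadjusted, all lower) and 0 from that of the midgut, another larval organ that is broken down (1 higher and 1 lower unadjusted).

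As scaled, the gland differed from the other tissues in 1 of the steps, from day 7 to spinning larvae. After centring, limma made no call in that step but did call a lower change from spinning larvae to prepupae. The calls in this paragraph are as scaled. In a limma fit with stage as a factor, added after seeing the data, the change between stages in the gland was set against the same change in midgut, body wall and fat body. The gland has 1 specimen at each stage and stage terms of its own in this fit, so the error comes from the other tissues alone and the gland is assumed to vary like them. From day 7 to spinning larvae, 1 probe changed more upwards in the gland (1.2%) and 3 more downwards (3.61%). At an unadjusted p under 0.05 in limma, 1 was higher and 7 were lower. The median difference over the 83 probes was -1.10 in log2 units, so most probes moved down in the gland against the others. After centring this median was 0.02. From spinning larvae to prepupae 0 probes differed in limma (1 unadjusted, lower), and between day 7 larvae and prepupae 0 differed (5 unadjusted, all lower).

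The probe on the higher side was SW-59. It had 12053 in the day 7 gland, 20811 in the spinning gland and 3642 in the prepupal gland, as means of the slides. The midgut had 17484, 3747 and 2024 at these stages, the body wall 9650, 2917 and 965, and the fat body 10164, 1344 and 838. Day 7 signals were thus of similar size in the 4 tissues, and at spinning the gland kept a high signal while the 3 other tissues were lower than at day 7. The gland's change exceeded that of the others by 3.07 in log2 units (adjusted p = 0.0358 in limma, standard error 0.95).

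The 3 probes on the lower side, SW-41, SW-17 and SW-35, shared a course. Whether they stand for different miRNAs is not known here. SW-41 had 2743, 2081 and 4636 in the gland at the 3 stages, against 2141, 9066 and 9642 in the midgut, 607, 10076 and 11858 in the body wall, and 1179, 10884 and 6419 in the fat body. SW-17 had 3669, 3224 and 7501 in the gland, against 2578, 11354 and 12998 in the midgut, 719, 11322 and 15430 in the body wall, and 1510, 11419 and 8131 in the fat body. SW-35 had 3198, 3203 and 5492 in the gland, against 3089, 10137 and 7104 in the midgut, 1151, 13995 and 10179 in the body wall, and 1197, 11455 and 7360 in the fat body. As scaled, the other 3 tissues were in each case higher at spinning than at day 7. The gland was lower for SW-41 and SW-17 and level for SW-35, with higher signals in prepupae. The spinning gland arrays were dimmer, and the median step over the 106 probes was -0.71 as scaled and 0.04 after centring. With that shift, the gland's own step was also upward for these 3 probes after centring. As scaled, the gland's change differed from that of the others by -3.50 for SW-41 (standard error 0.94, adjusted p = 0.0177 in limma). It differed by -3.20 for SW-17 (standard error 0.93, adjusted p = 0.0278 in limma) and -2.86 for SW-35 (standard error 0.93, adjusted p = 0.0486 in limma).

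These 4 calls were fragile. Of 22 alternatives, limma lost the call in 14 for SW-59, 9 for SW-41, 11 for SW-17 and 17 for SW-35, among them single specimens of the other tissues left out and no variance trend. On slide b of day 7 and of spinning larvae, the gland signals of SW-41, SW-17 and SW-35 were under the blank spots. In day 7 larvae SW-41 was under them on slide a as well. The day 7 midgut means of these 3 probes also lay under both blank signals of that specimen (3686 and 3811). Those of the day 7 fat body lay under its blank signal on slide a (1695). The day 7 body wall means were above its blank signals (99 and 127). After centring limma made 0 calls in this step, with a difference of 4.19 for SW-59 and -2.39 for SW-41 (adjusted p = 0.0856 each), -2.09 for SW-17 and -1.74 for SW-35 (adjusted p = 0.159 and 0.224 in limma). With session as a fixed term limma also made 0 calls, and SW-59 had 2.89 and SW-41 -2.79 (adjusted p = 0.0701 and 0.0864). The direction of the difference from the other tissues was the same in all the alternatives run for these 4 probes. The day 7 and spinning specimens of the midgut share a session, as do those of the fat body, whereas those of the gland and of the body wall do not. The day 7 body wall was alone in its session, and its array medians of 317 and 492 were the lowest of the metamorphosis arrays. Without it, the median difference over the 83 probes in this step was -0.75 as scaled.

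**Figure D4:**
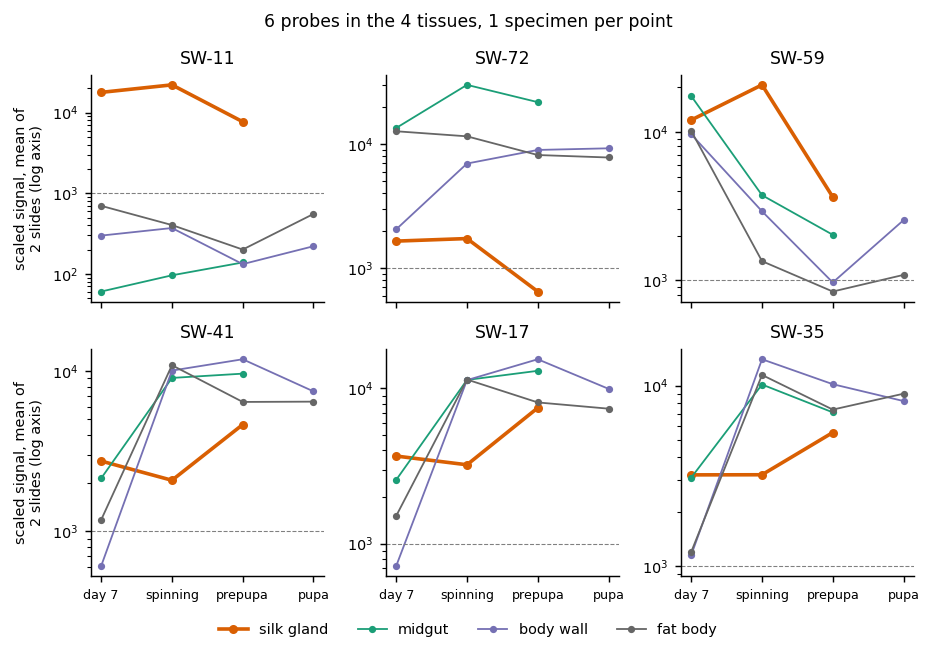
Scaled signals (log axis, mean of slides a and b, 1 specimen per point) of 6 probes from day 7 larvae to pupae in silk gland (thick orange), midgut, body wall and fat body, with a dashed line at 1000. SW-11 is at 7718 or more in the gland and at 699 or less elsewhere, and SW-59 stays high in the gland at spinning. As scaled, SW-41, SW-17 and SW-35 are higher at spinning in the other tissues and lower or level in the gland.

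The level of the gland over its stages was also compared with the mean level of the other tissues, in a limma contrast added after seeing the data. As scaled, 38 of the 83 probes were higher in the gland (45.8%) and 8 were lower (9.64%), and the median difference was 0.81 on the log2 scale. Of the 38, 9 had fewer than 3 other specimens at 1000 and so passed the filter only with the gland. After centring 3 were higher (3.61%) and 19 lower (22.9%), so most higher calls moved with the brighter arrays of the gland. Without the day 7 or without the prepupal gland specimen the contrast rests on spinning larvae, and 2 probes were higher, against 38 without the spinning specimen.

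SW-11 was the only probe whose gland signals lay above those of all 11 other metamorphosis specimens both as scaled and after centring. It had 18726 and 17000 in day 7 larvae, 21116 and 23145 in spinning larvae and 6776 and 8661 in prepupae. The 11 specimens of the other tissues lay between 60.5 and 699, all under the limit of expression, so the groups did not overlap. SW-11 passed the filter on low signals through the gland specimens alone, so its difference is given as a description, with no test. The log2 difference of the levels was 5.98 as scaled and 5.02 after centring, and within sessions it was 6.14 (1 gland specimen against 7 others) and 6.69 (2 against 3). Of the other specimens 2 lay under the floor of 100 and all were under 1000, so these sizes depend on the floor. At day 3 of the instar, on arrays scaled on another basis, its means were 1323 to 2162 in the anterior and 1030 to 1603 in the posterior silk gland. The malpighian tubule of the same day had 7190 in the female and 898 in the male, so a high SW-11 signal was not particular to the gland among the larval tissues. Among the 3 stages followed here it was lowest in prepupae.

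SW-72 was the mirror of SW-11. It had 1653, 1733 and 649 in the gland at the 3 stages, as means of the slides, against 2057 to 29963 in the other specimens, which did not overlap with the gland. Its log2 difference was -3.04 with a standard error of 0.42 (adjusted p = 1.11e-05 in limma), and it was larger in size after centring. SW-11 as a high probe and SW-72 as a low probe had marked the larval silk gland in earlier results of these data, so these levels describe the label of the specimens and add no independent support. Over all 106 probes, the gland lay above all 11 other specimens for 2 probes as scaled (1.89%, SW-5 and SW-11) and below them for 2 (1.89%, SW-58 and SW-72). After centring it lay above them for 2 (1.89%, SW-11 and SW-23) and below them for 8 (7.55%), SW-58 and SW-72 again included.

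SW-7 and SW-68 were also lower in the gland than in the mean of the other tissues. SW-7 gave the highest signal of the day 3 larval arrays, which the study's legend ascribes to miR-1, a miRNA of muscle. It had 4651, 1812 and 4199 in the gland at the 3 stages, against 23735 to 66465 in the body wall, 29534 to 56389 in the midgut and 1043 to 11011 in the fat body. Its spots reached net signals of 64000 or more, close to saturation, on 7 arrays of 4 body wall and midgut specimens, so the size of its difference cannot be read. It was lower in the gland in limma (adjusted p = 0.00304). SW-68 had 4088, 767 and 2619 in the gland, against 20964 or more in the body wall and 28185 or more in the midgut. The fat body had 1094, 944 and 6422 at these stages and 2492 in pupae. SW-68 differed by -2.58 (standard error 0.51, adjusted p = 0.000706 in limma), with spots near saturation on 1 array, of the spinning body wall. In both probes the day 7 gland lay above the day 7 fat body, so a low signal was not particular to the gland. Both probes were thus far under the body wall and midgut at each stage but not at 0, and the part of adhering muscle in these signals was not tested.

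SW-106 and SW-54 showed that high signals in the gland can be shared. SW-106 had 7242, 3671 and 10567 in the gland, and 12799, 20468 and 9296 in the midgut. It had 1789 or less in body wall and fat body. In limma it lay 2.22 above the mean of the other tissues (standard error 0.43, adjusted p = 0.000567), and 1.26 after centring (adjusted p = 0.0705). SW-54 had 9193, 3695 and 9058 in the gland and 10256, 15883 and 9374 in the midgut. In both probes the gland was below the midgut at day 7 and at spinning. SW-106 and SW-54 had been listed as marking malpighian tubule and anterior silk gland in earlier results of these data. Their levels and p-values thus add no independent support.

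Over all 106 probes, the 3 gland specimens resembled each other more than any other specimen of the series. Their log2 signals correlated at 0.895 to 0.909 across probes, which are not independent, against at most 0.844 with another metamorphosis tissue, the day 7 midgut that shares the day 7 gland's session. Among day 3 larval specimens the female malpighian tubule came closest, with 0.812, 0.829 and 0.808 for the day 7, spinning and prepupal gland, ahead of the larval anterior and posterior silk gland, which had 0.679 to 0.749. The day 3 arrays were scaled on another basis. The malpighian tubule arrays carry the same date code as the spinning gland, whereas the anterior and posterior silk gland arrays carry other codes. The part of scaling and session in this order was not tested.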

How the data were processed

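Low molecular weight RNA was labelled with Cy3 and hybridized to the miRNA array, 1 specimen on slides a and b. Before deposition the authors read the spot intensities with LuxScan, subtracted the local background, gave spots at or below 0 the value 10, exchanged outlier spots and scaled the whole array by 1 factor, called a global median in the methods and a global mean in the results. The deposited intensity per probe, a mean over 3 spots on a linear scale, was used, and it equals the series table (largest difference 0). No genome or probe annotation was used.

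Signals under 100 were set to 100, taken to log2 and averaged over the slides. Stage pairs were compared with the fold rule given above. limma 3.58.1 (lmFit, eBayes with a variance trend) in R 4.3.3 was fitted to 14 specimens, with 6 residual degrees of freedom for slopes and 5 with stage as a factor, and p-values were adjusted by Benjamini-Hochberg over 83 probes. It was tested on simulated data. SAM, the study's method, was not run. Python 3.11.15, numpy 2.4.6, pandas 2.3.3 and matplotlib 3.10.9 were used. Alternatives were array-median centring, net signals, other floors, thresholds and folds, single slides, no filter, session terms, no variance trend, no pupae, and leaving out each specimen. Of the probes named, up to 10 per direction had the largest differences between prepupae and day 7 larvae past the rule, up to 6 in the other stage pairs, up to 10 for the slope and up to 5 against other tissues. The 10 strongest of each stage, those that turned between steps, and SW-7 were added to these, and others are named to complete short counts. Members, lists and rules were chosen with earlier results of these data known. Precision is limited by the number of arrays.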

Additional observations from a re-analysis of the deposited data

Results flagged for a closer look

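In 4 probes the step from day 7 to spinning larvae differed between the silk gland and the other tissues in limma. The difference on the log2 scale was 3.07 for SW-59, -3.50 for SW-41, -3.20 for SW-17 and -2.86 for SW-35. Over the 83 probes its median was -1.10 as scaled. The contrast was chosen after seeing the data, and the gland had 1 specimen at each of the stages. After centring 0 of the 4 passed (smallest adjusted p = 0.0856 in limma), nor did any with session as a fixed term (smallest adjusted p = 0.0701 in limma).

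The control spots named blank gave signals on all 6 gland arrays. They had 3569 and 3233 in day 7 larvae, 457 and 3156 in spinning larvae, and 3589 and 4123 in prepupae. A second kind of control spots, named Blank with a capital, had 6.67 to 13.5 on the same arrays.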

How the results depend on the processing

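The lists of probes past the fold rule moved with every setting that shifts whole arrays. For prepupae over day 7 larvae, higher probes numbered 5 with centring, 5 with net signals before the scaling, 12 on slide b alone and 9 with a fold of 1.5, and lower probes 3 with a floor of 1000, 18 on slide a alone and 15 with a fold of 1.5. For spinning over day 7 larvae, higher probes numbered 5 with centring, 0 with net signals, 2 on slide a or on slide b alone and 4 with a fold of 1.5, and lower probes 4 with centring, 23 on either slide alone and 24 with a fold of 1.5. For prepupae over spinning larvae, higher probes numbered 0 with centring, 24 with net signals, 28 on slide b alone and 33 with a fold of 1.5, and lower probes 9 with centring or on slide a alone, 1 with net signals and 7 with no limit of expression. With a limit of 2000, 50 probes in day 7 larvae and 28 in spinning larvae were at or above it, and 40 reached 1000 in spinning larvae with net signals. The mean correlation among the gland specimens was 0.882 with a floor of 1000 and 0.838 over the probes tested alone, and the highest with another tissue was 0.810 and 0.708.

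In limma, the probes with a lower slope in the gland numbered 0 with centring, on either slide alone, with no filter or with session as a fixed term, and 3 with a floor of 1000. Against the mean slope of the other tissues 1 was lower with a floor of 10 or with no variance trend. Level calls numbered 3 higher and 19 lower with centring, 6 and 4 with net signals, and 23 and 13 with session as a fixed term. For the step from day 7 to spinning larvae, limma made 0 calls in either direction with centring, net signals, a floor of 1000, session as a fixed term or no variance trend, and 0 higher calls on slide a alone. For the step from spinning larvae to prepupae 1 was lower with centring, with a floor of 1000 or with no variance trend, and between day 7 larvae and prepupae 1 was lower with a floor of 10 or with no variance trend. Over fits that left out 1 specimen each, lower calls ranged from 0 to 1 for the slope, for its difference from the other tissues and for the step to prepupae and the whole change, higher level calls from 2 to 42, lower ones from 7 to 9, and step calls to spinning from 0 to 1 higher and from 0 to 4 lower. SW-24 lost its call without the day 7 or prepupal gland, the body wall at any of its 4 stages or the prepupal fat body. SW-41 lost its call without the spinning or pupal body wall or the spinning fat body, SW-17 also without the spinning midgut or the pupal fat body. SW-59 lost its call without the fat body at any of its 4 stages, the spinning or pupal body wall or the spinning midgut, and SW-35 without any of these or the day 7 body wall. Step contrasts could not be fitted without a gland specimen. SW-72, SW-68 and SW-7 kept their level calls in all 25 alternatives. No named difference changed its sign, but the balance of calls turned with centring, where the median level difference was -0.15, against 0.81 as scaled, and the median of prepupae minus spinning larvae was -0.06, against 0.56. No paired analysis was possible because the letters a and b name slides of the same RNA, and each stage of a tissue had 1 specimen. Signals near the blank spots limit what can be read from weak probes.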
